A study of Mus musculus with 24 samples.

Results

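De novo lipogenesis is the making of fatty acids from carbohydrate carbon. The 10 genes described here encode the enzymes of that route and a pair of factors that accompany it, and they were chosen by name, with earlier results of these data known, from 37310 annotated mouse genes. No threshold on the measured values was applied. They are Acly, Acaca, Acacb, Fasn, Scd1, Scd2, Elovl6, Me1, Thrsp and Mlxipl. Their mRNA was measured in cultures of stromal vascular cells, the mixed fraction of fat that contains adipocyte precursors, taken from C57BL/6 mice at an age of 6 weeks. The white adipose tissue (WAT) was the inguinal depot and the brown adipose tissue (BAT) the interscapular depot. All cultures were given an induction medium with insulin, dexamethasone and 3-isobutyl-methylxanthine for 4 days, and the cultures kept to day 8 were then moved to a differentiation medium. EGCG (epigallocatechin gallate, a catechin of green tea) was added to the treated cultures and its solvent DMSO to the controls, and the labels give no dose. RNA was collected at day 4 and day 8, so that the 8 groups, 1 for each combination of depot, day and treatment, had 3 libraries each. No gene was altered in any group, and the cells were primary cultures rather than a clone.

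In this route citrate leaves the mitochondrion and is split to acetyl-CoA, acetyl-CoA is carboxylated to malonyl-CoA, and fatty acid synthase condenses the units to palmitate with NADPH as the reductant. Palmitate is then elongated and desaturated before it is built into triglyceride. In adipose tissue and liver the genes of the route are known to respond to insulin and glucose through the transcription factors SREBP-1c and ChREBP, the latter encoded by the member Mlxipl, and their rise is a hallmark of adipocyte maturation.

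Values are given as FPKM, the reads of a gene divided by its length and by the reads assigned to genes, so that levels of different genes can be set side by side. Replicates 1 and 2 were in 1 table and were tested. Replicate 3 was in a second table that had been scaled separately, and it is given as a value with no test. Where 3 values follow each other they are replicates 1, 2 and 3, and a mean ± SD is that of replicates 1 and 2 (n = 2). The libraries held 39452696 to 52893848 reads on genes in replicates 1 and 2 and 16392420 to 41675643 in replicate 3. In replicate 3 of the EGCG-treated WAT cultures at day 8, 61.0% of reads fell on 5 genes outside the set, and its size factor was 0.458, so that its FPKM values are lower by that factor for a typical gene. The labels do not say whether replicates were separate cell isolations, and p-values therefore measure the spread between these libraries, which may be technical. For each gene that spread was estimated over all 8 groups together. The SE of a comparison is therefore not the spread of its own libraries alone. In bulk samples fewer cells of a type and less RNA per cell cannot be told apart.

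The control cultures carried the markers of maturing adipocytes. The summed level of 10 mature adipocyte markers was 2174 to 2489 FPKM in the control WAT libraries of replicates 1 and 2 at day 4 and 5130.2 to 6020.3 at day 8. In BAT it was 5279 to 6178 and 10304 to 10409.9 FPKM. Zic1, a marker of the brown lineage, lay between 3.57 and 11.1 FPKM in all BAT libraries of replicates 1 and 2 and was at most 0.154 FPKM in those of WAT. Ucp1, which defines active brown fat, reached 6.97 and 6.15 FPKM in control BAT at day 8 and was at most 0.423 FPKM in every other library of replicates 1 and 2.

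Promoter sequences were available from RefSeq (build GRCm38.p6) for 8 of the 10 genes, all but Scd1 and Scd2, and each window ran from 250 bases before to 50 bases after the annotated start. They are shown because the set moved together and because the factors that act on these genes are known by the short motifs they bind. A set of 4 motifs was searched on both strands: the E-box CACGTG, the CCAAT box (CCAAT), the GC box (GGGCGG) and the core of the sterol response element (TCAC and CCAC separated by any 1 base). The stretches below are from Fasn, which encodes the synthase itself, and from Thrsp, Mlxipl and Acacb, which had the widest spans of group means among the genes with a window. They are written 5′ to 3′ on the strand of the gene with the counted matches in capitals, and ATTGG is a CCAAT box on the other strand.
Fasn, chr11:120824548-120824647, minus strand, 100 to 1 bases before the start: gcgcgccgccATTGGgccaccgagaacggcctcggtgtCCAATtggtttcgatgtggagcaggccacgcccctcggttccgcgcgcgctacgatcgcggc
Thrsp, chr7:97417551-97417650, minus strand, 100 to 1 bases before the start: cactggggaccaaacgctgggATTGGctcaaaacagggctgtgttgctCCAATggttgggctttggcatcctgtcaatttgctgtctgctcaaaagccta
Acacb, chr5:114165418-114165517, plus strand, 100 to 1 bases before the start: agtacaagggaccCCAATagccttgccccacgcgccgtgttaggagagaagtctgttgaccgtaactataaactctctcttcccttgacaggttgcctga
Mlxipl, the start at entry 1, chr5:135106711-135106790, plus strand, 180 to 101 bases before: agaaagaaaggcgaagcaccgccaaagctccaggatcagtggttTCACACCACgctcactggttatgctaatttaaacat
Mlxipl, the start at entry 2, chr5:135089690-135089889, plus strand, 200 to 1 bases before: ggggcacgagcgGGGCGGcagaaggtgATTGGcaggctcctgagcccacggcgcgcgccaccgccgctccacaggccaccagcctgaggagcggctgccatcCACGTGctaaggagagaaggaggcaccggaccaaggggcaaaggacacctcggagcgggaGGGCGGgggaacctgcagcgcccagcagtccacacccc

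The windows of Fasn and Thrsp each held 2 counted CCAAT boxes, beginning at -90 and -62 in Fasn and at -79 and -52 in Thrsp. Those of Thrsp lay in opposite orientation. The Fasn site at -62 reads CCAATtgg, which holds a match on each strand. The overlapping match there was neither counted nor put in capitals. At least 2 CCAAT boxes were found in 11.5% of 32851 mouse promoter windows of the same length, and at least 1 in 37.4%. The sterol response element core of Mlxipl began at -136 of its entry 1, a match found in 1.24% of windows, and the E-box of its entry 2 began at -98, a match found in 7.15%. Entry 2 also held a CCAAT box at -173 and GC boxes at -188 and -38. Acly and the window of Me1 at its entry 1 held 4 GC boxes each. Of all windows 35.7% held at least 1 and 19.0% at least 2, and the share with 4 is not given. Acly also held a CCAAT box at position 37, and the window of Me1 at its entry 2 held one at -208. Acaca and Elovl6 held none of the 4 motifs. A match is a description of letters in a short window.

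**Figure D1:**
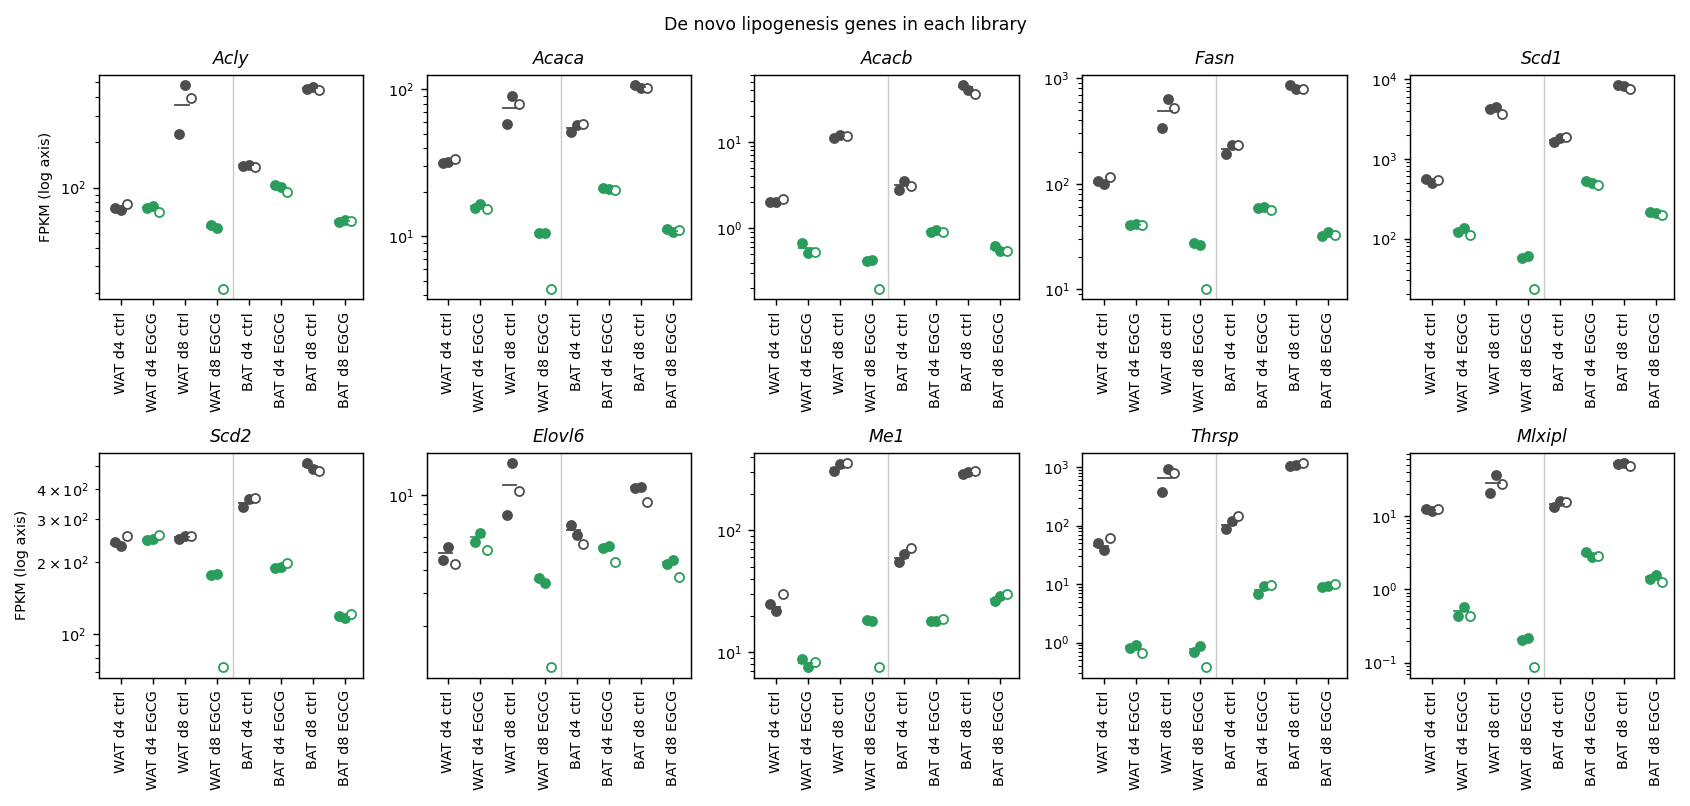
Level (FPKM, log axis) of each of the 10 genes in every library by group, with control libraries in grey and EGCG libraries in green. Filled points are replicates 1 and 2 with a bar at their mean, and open points are replicate 3. Control levels are highest at day 8, and in the day 8 EGCG groups all 10 genes lie below the control of the same day and depot. The open point of the WAT day 8 EGCG group is the library in which 61.0% of reads fell on 5 genes.

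The summed level of the 10 genes shows the span of the data. In WAT controls it was 1102, 1017 and 1142 FPKM at day 4 and 5852, 7215 and 6042 FPKM at day 8. With EGCG it was 515, 531 and 510.4 FPKM at day 4 and 351, 352 and 141 FPKM at day 8. The sum therefore went up between the days in control WAT and not in EGCG-treated WAT. In BAT controls it was 2520.5, 2846 and 2892 FPKM at day 4 and 11837, 11549 and 10943 FPKM at day 8. With EGCG it was 937, 899.6 and 871 FPKM at day 4 and 477, 478 and 466 FPKM at day 8. The control and EGCG libraries did not overlap in either depot on either day. At the highest, in control BAT at day 8, the 10 genes took 5.79% of all reads on genes, and at the lowest among replicates 1 and 2, in EGCG-treated WAT at day 8, they took 0.194%.

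The order of the 8 groups was the same for Acaca, Acacb and Fasn. It ran from control BAT at day 8 through control WAT at day 8, control BAT at day 4, control WAT at day 4, EGCG-treated BAT at day 4, EGCG-treated WAT at day 4 and EGCG-treated BAT at day 8 to EGCG-treated WAT at day 8. Neighbours in that order did not overlap in replicates 1 and 2, except EGCG-treated WAT at day 4 and EGCG-treated BAT at day 8 for Acacb. Lack of overlap was common. Between BAT and WAT of the same day and treatment it held for 73.1% to 78.7% of all tested genes. Scd1 and Mlxipl shared another order, in which EGCG-treated BAT at day 8 stood above EGCG-treated WAT at day 4. Over the set, 8 genes were highest in control BAT at day 8, and Me1 and Elovl6 were highest in control WAT at day 8. The lowest group was EGCG-treated WAT at day 8 for 8 genes, EGCG-treated BAT at day 8 for Scd2 and EGCG-treated WAT at day 4 for Me1.

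Addition of EGCG was compared with control within each depot and day, which asks how far the levels of the set differed with treatment. In WAT at day 4, 7 of the 10 genes fell and none rose, where 19.3% of the 14095 genes tested fell and 34.4% rose. In WAT at day 8 all 10 fell, where 18.9% of genes tested fell and 44.7% rose. In BAT 8 fell at day 4, where 20.6% of genes fell and 27.9% rose, and 10 fell at day 8, where 26.1% fell and 46.5% rose. The median log2 change of the set was -1.12 in WAT at day 4 and -3.61 in WAT at day 8. In BAT it was -1.49 at day 4 and -3.90 at day 8. That of all tested genes was 0.087 and 0.17 in WAT and 0.032 and 0.17 in BAT. The medians of the mature adipocyte markers, given below, were lower still in each comparison, so that a fall was not particular to the set. A gene was called when the adjusted p of the limma test (Benjamini-Hochberg over 14095 genes) was under 0.05, and log2 changes were taken after 1 was added to each FPKM value, so that a gene near or below 1 FPKM changed by more than its log2 value shows. Replicate 3 moved in the direction of the test for every gene called in these 4 comparisons. Of all tested genes, 81.7%, 36.0%, 79.1% and 86.2% did so in WAT day 4, WAT day 8, BAT day 4 and BAT day 8. The WAT day 8 EGCG library of replicate 3 had a size factor of 0.458, so that a fall was favoured there. After median-ratio scaling of replicate 3 the WAT day 8 share was 74.9%, and all 10 genes still fell. The genes without a call were Acly, Scd2 and Elovl6 in WAT and Acly and Elovl6 in BAT, all at day 4. After median-ratio scaling the changes of Acly and Scd2 in WAT at day 4 turned from 0.034 to -0.10 and from 0.062 to -0.077.

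**Figure D2:**
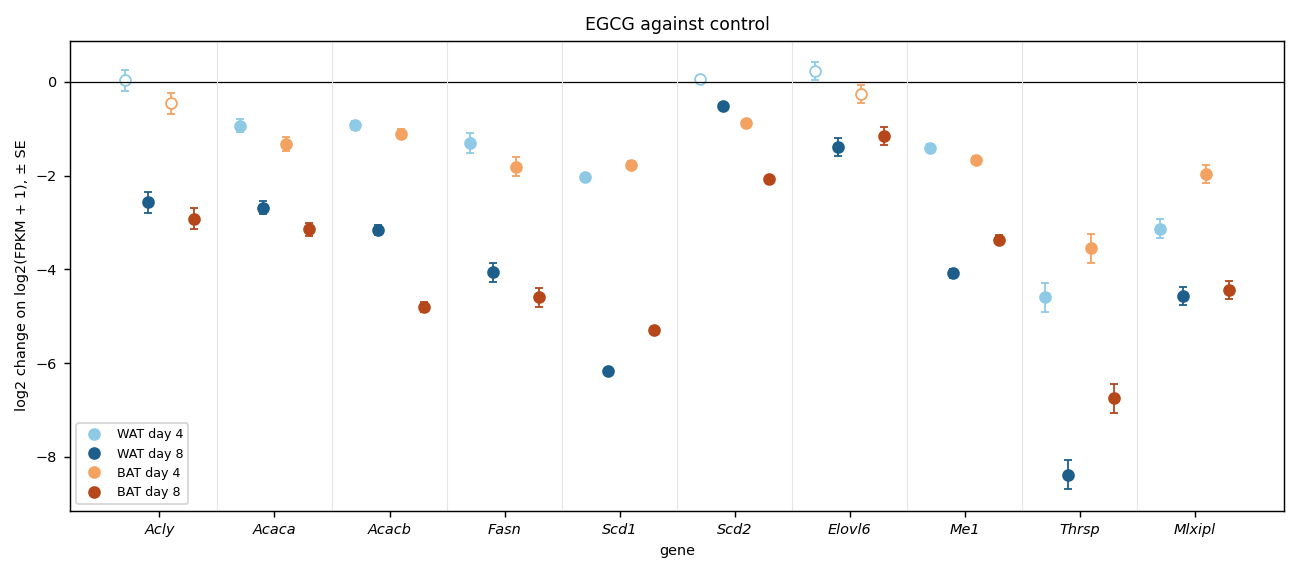
Log2 change (log2(FPKM + 1)) with EGCG against control for each gene, with bars of 1 SE from limma, in WAT and BAT at day 4 and day 8. Filled points passed an adjusted p of 0.05 and open points did not. The day 8 points lie below the day 4 points for every gene in both depots, from -0.51 for Scd2 in WAT to -8.38 for Thrsp in WAT.

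Acly and Me1 supply the route with its substrates. Acly (ENSMUSG00000020917.10, chromosome 11, 100337667 to 100389314 on mm9) encodes ATP citrate lyase, which makes cytosolic acetyl-CoA from citrate. In WAT Acly was at 73.1, 71.3 and 77.8 FPKM in controls and 72.9, 75.0 and 69.4 FPKM with EGCG at day 4. At day 8 Acly was at 227, 481 and 392 FPKM in controls and 56.2, 53.6 and 21.2 FPKM with EGCG. Treated and control libraries thus overlapped at day 4 in replicates 1 and 2 and were far apart at day 8. The log2 change was 0.034 ± 0.230 (SE) at day 4 (95% interval -0.47 to 0.54, adjusted p = 0.912, limma) and -2.57 ± 0.230 at day 8 (adjusted p = 1.58e-06, limma). In BAT the libraries were at 139, 142 and 137 FPKM in controls and 104, 101 and 93.2 FPKM with EGCG at day 4. The log2 change of -0.46 (95% interval -0.96 to 0.05) did not pass the test. The groups did not overlap, which in replicates 1 and 2 held for 76.1% of all tested genes. At day 8 the BAT libraries were at 452, 466 and 447 FPKM in controls and 59.0, 61.2 and 59.8 FPKM with EGCG, a 7.64-fold lower mean (adjusted p = 2.78e-07, limma). A fit of the 4 BAT day 4 libraries alone called the day 4 change of Acly (adjusted p = 0.00110, limma) and that of Elovl6 (0.0489).

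Me1 (ENSMUSG00000032418.8, chromosome 9, 86474970 to 86589947) encodes the cytosolic malic enzyme, a source of NADPH. In WAT Me1 was at 24.8, 22.0 and 30.1 FPKM in controls and 8.86, 7.56 and 8.39 FPKM with EGCG at day 4. At day 8 Me1 was at 305, 346 and 355 FPKM in controls and 18.4, 18.04 and 7.54 FPKM with EGCG. In BAT Me1 was at 55.2, 63.9 and 71.6 FPKM in controls and 17.95, 18.1 and 18.9 FPKM with EGCG at day 4, and at 287, 298 and 308 FPKM against 26.3, 28.8 and 30.1 FPKM at day 8. Me1 fell with EGCG in all 4 comparisons, with log2 changes of -1.41 and -4.08 in WAT and -1.66 and -3.36 in BAT at day 4 and day 8. It was the only member that rose between day 4 and day 8 in the presence of EGCG, by 1.06 ± 0.0900 (SE) in WAT (adjusted p = 1.28e-06, limma) and by 0.58 ± 0.0900 in BAT (adjusted p = 0.000163, limma). Replicate 3 as deposited went the other way in WAT, from 8.39 to 7.54 FPKM, and after median-ratio scaling it went from 7.40 to 16.5. A330041J22Rik overlaps Me1 on the opposite strand, and reads from overlapping genes may not be separable, since the strand setting of the counting was not stated.

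Acaca and Acacb encode the acetyl-CoA carboxylases. Acaca (ENSMUSG00000020532.10, chromosome 11, 83943174 to 84215153) encodes ACC1, the cytosolic enzyme that makes malonyl-CoA for synthesis. In controls it went from 31.7 ± 0.298 FPKM at day 4 to 74.5 ± 23.1 FPKM at day 8 in WAT and from 54.3 ± 4.09 to 104 ± 4.30 FPKM in BAT. With EGCG it was at 16.1 ± 0.830 and 10.5 ± 0.0617 FPKM in WAT and at 21.1 ± 0.214 and 10.9 ± 0.283 FPKM in BAT. Acaca fell with EGCG in all 4 comparisons, from a 1.97-fold lower mean in WAT at day 4 to a 9.56-fold lower mean in BAT at day 8. The day 8 EGCG levels of the 2 depots were close, with a log2 difference of BAT from WAT of 0.053 (95% interval -0.26 to 0.37). Gm11437 and Gm17722 overlap Acaca on the opposite strand.

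Acacb (ENSMUSG00000042010.10, chromosome 5, 114596544 to 114700770) encodes ACC2, the mitochondrial form, whose malonyl-CoA restrains fatty acid oxidation. In WAT Acacb was at 2.02, 2.02 and 2.18 FPKM in controls and 0.671, 0.517 and 0.534 FPKM with EGCG at day 4, and at 11.2, 12.2 and 11.8 FPKM against 0.416, 0.423 and 0.197 FPKM at day 8. In BAT Acacb was at 2.78, 3.58 and 3.09 FPKM in controls and 0.913, 0.967 and 0.916 FPKM with EGCG at day 4. At day 8 the BAT controls were at 46.2, 40.0 and 36.0 FPKM and the EGCG cultures at 0.617, 0.540 and 0.547 FPKM. Control BAT at day 8 thus stood well above every other group, and the EGCG groups were all under 1 FPKM. Acacb fell with EGCG in all 4 comparisons, and in BAT at day 8 the mean was 74.5-fold lower (log2 change -4.80 ± 0.0993 (SE), adjusted p = 6.70e-12, limma). Its rise between the days in control BAT was 13.5-fold (log2 change 3.40), the largest day change of the set in BAT, where in control WAT it was 5.78-fold (2.07). The pseudogene Gm13784 overlaps Acacb on the opposite strand.

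Fasn (ENSMUSG00000025153.8, chromosome 11, 120667254 to 120685492) encodes fatty acid synthase, which assembles palmitate. In WAT Fasn was at 105, 99.0 and 117 FPKM in controls and 40.7, 41.2 and 40.9 FPKM with EGCG at day 4. At day 8 Fasn was at 339, 638 and 519 FPKM in controls and 27.6, 26.1 and 10.0 FPKM with EGCG. The control replicates at day 8 were spread widely, and all of them lay far above the treated values. In BAT Fasn was at 193, 234 and 233 FPKM against 59.5, 60.6 and 56.2 FPKM at day 4, and at 867, 795 and 796 FPKM against 32.2, 34.6 and 32.9 FPKM at day 8. The mean with EGCG was 2.50-fold lower in WAT and 3.56-fold lower in BAT at day 4, and 18.2-fold and 24.9-fold lower at day 8 (adjusted p = 1.68e-08 and 2.21e-09, limma). Fasn was also the member closest to the rest of the set, with a Pearson correlation of 0.998 over the 16 libraries between its log2 level and the mean of the other 9. This is a description, since the libraries share the 8 groups.

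Elovl6, Scd1 and Scd2 act on palmitate and its products. Elovl6 (ENSMUSG00000041220.6, chromosome 3, 129235304 to 129341413) encodes the elongase that takes palmitate to stearate. It was the member with the narrowest span, 3.23-fold from its lowest to its highest group mean. In WAT Elovl6 was at 4.55, 5.34 and 4.32 FPKM in controls and 5.62, 6.33 and 5.12 FPKM with EGCG at day 4, and at 7.90, 14.9 and 10.5 FPKM against 3.64, 3.41 and 1.21 FPKM at day 8. In BAT Elovl6 was at 6.94, 6.13 and 5.50 FPKM against 5.26, 5.34 and 4.44 FPKM at day 4, and at 11.0, 11.1 and 9.27 FPKM against 4.33, 4.52 and 3.68 FPKM at day 8. At day 4 neither change passed the test, with a log2 change of 0.23 (95% interval -0.19 to 0.65) in WAT and -0.26 (-0.68 to 0.16) in BAT. At day 8 Elovl6 fell, with log2 changes of -1.39 ± 0.191 (SE) in WAT and -1.15 ± 0.191 in BAT (adjusted p = 5.26e-05 and 0.000170, limma).

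Scd1 (ENSMUSG00000037071.2, chromosome 19, 44468941 to 44482199) encodes stearoyl-CoA desaturase 1, which makes oleate and palmitoleate, and it was the most abundant member in every control group. In WAT Scd1 was at 555, 503 and 547 FPKM in controls and 123, 135 and 112 FPKM with EGCG at day 4. At day 8 Scd1 was at 4254, 4425 and 3585 FPKM in controls and 57.4, 60.9 and 23.3 FPKM with EGCG. In BAT Scd1 was at 1633, 1839.8 and 1853 FPKM against 529, 491 and 466 FPKM at day 4, and at 8438, 8207 and 7547 FPKM against 214, 209 and 195 FPKM at day 8. Treated and control libraries of Scd1 thus did not overlap in any depot or on any day. Over all tested genes the share without overlap in replicates 1 and 2 was 77.4% and 79.5% in WAT at day 4 and day 8. In BAT that share was 76.1% and 86.1%. The mean of Scd1 was 4.11-fold lower with EGCG in WAT and 3.40-fold lower in BAT at day 4. At day 8 Scd1 was 73.4-fold lower in WAT (log2 change -6.17 ± 0.0724 (SE), adjusted p = 3.65e-13, limma) and 39.4-fold lower in BAT (-5.29 ± 0.0724, adjusted p = 9.56e-13, limma). Among the 8 groups its mean ran from 59.2 ± 2.42 FPKM in EGCG-treated WAT at day 8 to 8322 ± 164 FPKM in control BAT at day 8, a span of 141-fold.

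Scd2 (ENSMUSG00000025203.5, chromosome 19, 44368166 to 44381354) encodes a related desaturase and lies near Scd1 on the other strand. In WAT it stood apart from the rest of the set in its change between the days in controls and in its small fall with EGCG at day 8. Its lack of a call with EGCG at day 4 in WAT was shared by Acly and Elovl6. In WAT Scd2 was at 242, 232 and 255 FPKM in controls and 247, 248 and 258 FPKM with EGCG at day 4, and at 249, 257 and 257 FPKM against 176, 178 and 72.9 FPKM at day 8. The log2 change with EGCG in WAT was 0.062 (95% interval -0.037 to 0.16) at day 4 and -0.51 ± 0.0454 (SE) at day 8 (adjusted p = 1.49e-06, limma). The change of control WAT between the days was 0.091 (95% interval -0.0082 to 0.19). After median-ratio scaling that change was 0.127 and passed the test (adjusted p = 0.0278, limma). In BAT Scd2 was at 337, 365 and 369 FPKM in controls and 189, 190.3 and 198 FPKM with EGCG at day 4. At day 8 Scd2 was at 514, 486 and 475 FPKM in controls and 119.6, 117 and 122 FPKM with EGCG. The libraries of BAT were therefore apart on both days, as were 76.1% and 86.1% of all tested genes in replicates 1 and 2. The mean of Scd2 was 1.85-fold lower at day 4 and 4.22-fold lower at day 8 with EGCG (adjusted p = 4.05e-08 and 1.14e-11, limma). The correlation of Scd2 with the mean of the other 9 members, 0.767 over 16 libraries, was the lowest of the set. Scd1 and Scd2 are similar in sequence, and the counting may have assigned or discarded shared reads in a way that is not stated. An annotated microRNA gene overlaps Scd2 on the same strand.

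Thrsp and Mlxipl are the regulatory members. Thrsp (ENSMUSG00000035686.7, chromosome 7, 104561448 to 104566240) encodes Spot 14, a thyroid hormone responsive protein of lipogenic tissue, and had the widest span of the set, 1382-fold between its lowest and highest group mean. In WAT Thrsp was at 51.1, 38.2 and 61.9 FPKM in controls and 0.817, 0.924 and 0.668 FPKM with EGCG at day 4. At day 8 Thrsp was at 380.4, 915 and 805 FPKM in controls and 0.693, 0.864 and 0.376 FPKM with EGCG, where the lower values rest on 46, 44 and 20 reads. In BAT Thrsp was at 88.0, 119 and 146 FPKM against 6.65, 9.15 and 9.75 FPKM at day 4, and at 1061, 1092 and 1174 FPKM against 8.79, 9.33 and 10.1 FPKM at day 8. With EGCG the level was thus under 1 FPKM in WAT and between 6.65 and 10.1 FPKM in BAT on both days. The difference of BAT from WAT within the EGCG groups was 2.24 ± 0.309 (SE) at day 4 and 2.50 ± 0.309 at day 8 on the log2 scale (adjusted p = 0.000112 and 8.22e-05, limma). Between the days it changed little with EGCG, by -0.074 (95% interval -0.75 to 0.60) in WAT and 0.19 (-0.49 to 0.87) in BAT, where it rose 14.5-fold in control WAT and 10.4-fold in control BAT.

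Mlxipl (ENSMUSG00000005373.6, chromosome 5, 135582761 to 135614254) encodes ChREBP, the glucose-responsive transcription factor of the lipogenic genes. In WAT Mlxipl was at 12.4, 11.8 and 12.5 FPKM in controls and 0.430, 0.572 and 0.434 FPKM with EGCG at day 4. At day 8 Mlxipl was at 20.5, 36.9 and 27.5 FPKM in controls and 0.201, 0.214 and 0.0857 FPKM with EGCG, the latter from 38, 31 and 13 reads. In BAT Mlxipl was at 13.3, 16.2 and 15.5 FPKM against 3.29, 2.73 and 2.89 FPKM at day 4, and at 52.4, 53.3 and 47.9 FPKM against 1.39, 1.59 and 1.24 FPKM at day 8. The control levels of the 2 depots at day 4 were near each other, whereas the EGCG level was 3.01 ± 0.393 FPKM in BAT and 0.501 ± 0.1003 FPKM in WAT. The mean with EGCG was 24.2-fold lower in WAT and 4.90-fold lower in BAT at day 4, and 138-fold and 35.5-fold lower at day 8 (adjusted p = 4.27e-09 and 1.76e-09, limma).

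The days were compared within each depot and treatment, which asks how the set moved as differentiation went on. In control WAT 9 of the 10 genes rose from day 4 to day 8 and none fell, beside 27.7% of tested genes that rose. After median-ratio scaling all 10 rose there, with Scd2 added. In control BAT 10 rose, beside 28.7%. The largest rises in control WAT were those of Me1 (3.74 on the log2 scale), Thrsp (3.71) and Scd1 (3.03), and in control BAT those of Acacb (3.40), Thrsp (3.38) and Me1 (2.28). In EGCG-treated WAT 5 genes fell, beside 27.7% of tested genes that fell, and they were Acaca, Fasn, Scd1, Scd2 and Elovl6, with log2 changes of -0.48 to -1.11. Me1 alone rose, beside 31.8% of tested genes that rose. In EGCG-treated BAT 7 genes fell, beside 28.2%, namely Acly, Acaca, Acacb, Fasn, Scd1, Scd2 and Mlxipl, with log2 changes of -0.30 to -1.27, and Me1 rose, beside 29.7%. The change in EGCG-treated WAT did not pass the test for Acly (-0.42), Acacb (-0.17), Thrsp (-0.074) and Mlxipl (-0.31), nor in EGCG-treated BAT for Elovl6 (-0.22) and Thrsp (0.19). In WAT, Acacb (-0.41, adjusted p = 0.0293, limma) and Mlxipl (-0.96, adjusted p = 0.00272, limma) passed with a pseudocount of 0.1. A fit of the 4 EGCG-treated WAT libraries alone called Acly (adjusted p = 0.000997, limma) and Mlxipl (0.0437), and one of the 4 EGCG-treated BAT libraries called Elovl6 (0.0310). The call of Acacb in EGCG-treated BAT was lost with no filter (adjusted p = 0.0521, limma) and under quantile normalization (0.0588). The call of Fasn in EGCG-treated WAT was lost with no filter and when any of its 4 libraries was left out (adjusted p = 0.0702 to 0.105, limma), and 4 or 5 of the 6 calls there and 5 to 7 of the 8 in EGCG-treated BAT were made when a library was left out.

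**Figure D3:**
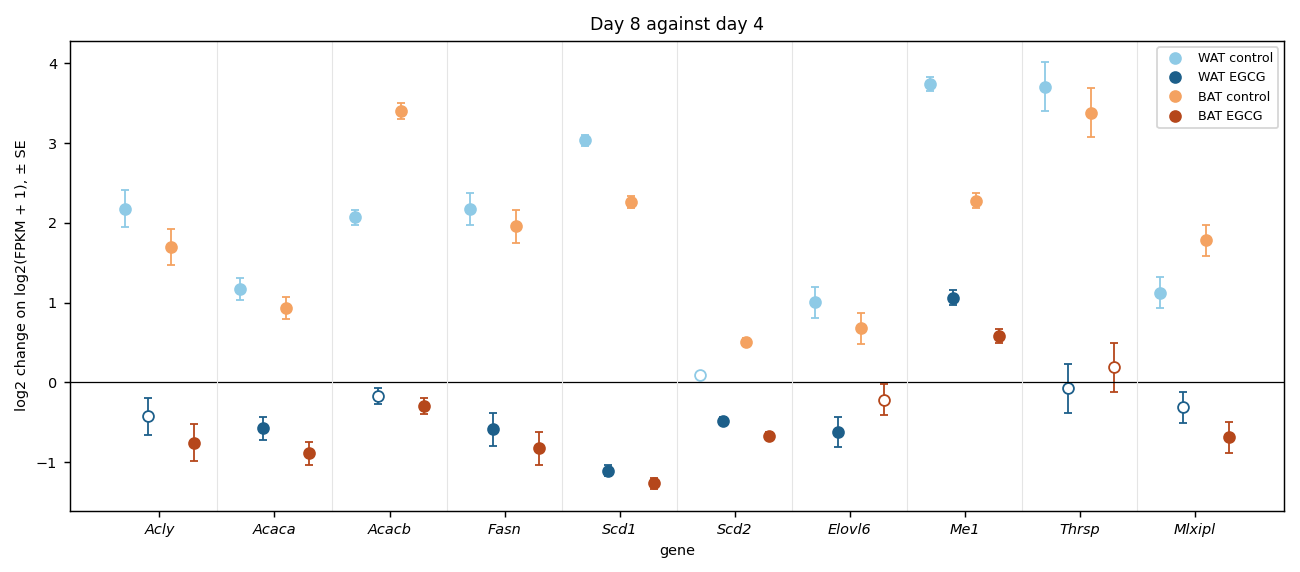
Log2 change (log2(FPKM + 1)) from day 4 to day 8 for each gene, with bars of 1 SE from limma, in control and EGCG-treated cultures of WAT and BAT. Filled points passed an adjusted p of 0.05. The control points lie above 0 for every gene, with Scd2 of WAT at 0.091, and the EGCG points lie below 0 except those of Me1 in both depots and Thrsp in BAT.

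The difference between the EGCG effects at day 8 and day 4 was tested as an interaction. It was negative for 10 of 10 genes in WAT, beside 19.7% of tested genes with a lower effect at day 8, and for 10 of 10 in BAT, beside 20.6%. In WAT it ran from -0.57 for Scd2 to -4.14 for Scd1, and in BAT from -0.89 for Elovl6 to -3.70 for Acacb, on the log2 scale. These interactions use the same 8 libraries of a depot as the day and treatment comparisons above and are the same numbers seen another way, so they add no further libraries.

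BAT was compared with WAT at the same day and treatment. In controls at day 4, 8 genes were higher in BAT and none lower, beside 41.4% of tested genes that were higher. Scd1 differed most, 3.28-fold higher in BAT, and Elovl6 (log2 difference 0.34) and Mlxipl (0.26) did not pass the test. In controls at day 8, 7 were higher, beside 31.6%, with Acacb at 3.68-fold and Scd2 at 1.98-fold, and Acly (0.47), Elovl6 (0.017) and Me1 (-0.15) did not pass. With EGCG at day 4, 6 were higher in BAT, beside 32.9%, and they were Acacb, Fasn, Me1, Mlxipl, Scd1 and Thrsp. With EGCG at day 8, 4 were higher, beside 24.4%, namely Me1 (0.57), Mlxipl (1.04), Scd1 (1.82) and Thrsp (2.50). Scd2 was the only member lower in BAT, with log2 differences of -0.38 at day 4 and -0.58 at day 8 with EGCG, beside 15.8% and 14.0% of tested genes that were lower. Several of these depot calls were lost when a library was left out. Each such fit leaves its group with a single library, so a loss can reflect fewer libraries. With EGCG at day 4 the call of Fasn was lost when any of its 4 libraries was left out (adjusted p = 0.125 to 0.140, limma) and that of Acacb when any of 3 of them was (0.0827 to 0.188). Both calls were also lost after median-ratio scaling (adjusted p = 0.0844 for Fasn and 0.0566 for Acacb, limma) and with no filter (0.111 and 0.0724), so that 4 genes were higher in BAT, and that of Acacb under quantile normalization (0.0557). The call of Thrsp in controls was lost at day 4 without replicate 2 of WAT or replicate 2 of BAT (adjusted p = 0.0571 and 0.0570, limma) and at day 8 without replicate 1 of WAT (0.368) or either replicate of BAT (0.0932 and 0.108) and with no filter (0.0845). Elovl6 in controls at day 8 had a log2 difference of -0.40 without replicate 1 of WAT and 0.44 without replicate 2, and both values passed the test. A fit of the 4 day 8 control libraries alone called 3 members, Acacb, Scd1 and Scd2, instead of 7.

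Whether the effect of EGCG differed between depots was tested as the effect in BAT minus that in WAT. At day 4 it differed for 2 of 10 genes, beside 28.1% of tested genes, and at day 8 for 5 of 10, beside 39.2%, so that the counts were close to the background. At day 4 Mlxipl fell less in BAT (difference 1.16 ± 0.274 (SE), adjusted p = 0.00908, limma) and Scd2 fell in BAT, where its change in WAT was 0.062 (difference -0.95 ± 0.0642, adjusted p = 2.41e-06, limma). A pseudocount of 0.1 added Thrsp at day 4 (1.82, adjusted p = 0.0122, limma), and median-ratio scaling added Scd1 (0.36, adjusted p = 0.0245, limma). At day 8 Acacb (-1.64 ± 0.140) and Scd2 (-1.56 ± 0.0642) fell further in BAT, and Scd1 (0.88 ± 0.102), Me1 (0.72 ± 0.127) and Thrsp (1.64 ± 0.436) fell further in WAT. For Acly, Acaca, Fasn, Elovl6 and Mlxipl the difference at day 8 did not pass the test, with 95% intervals that lay between -1.17 and 0.84. With a pseudocount of 0.1 in place of 1 the difference of Mlxipl was 1.43 and passed (adjusted p = 0.00395, limma). Without replicate 1 or without replicate 2 of the WAT day 8 controls 8 genes were called, and the sign for Acly, Elovl6 and Mlxipl depended on which was left out. The EGCG day 8 levels of Acacb in the 2 depots were 0.419 ± 0.00482 FPKM in WAT and 0.579 ± 0.0545 FPKM in BAT, and the control levels were 11.7 ± 0.733 and 43.1 ± 4.41 FPKM.

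Within a library the ratio of a gene to its paralog does not depend on the scaling. The ratio of Scd1 to Scd2 was 2.30, 2.17 and 2.14 in control WAT at day 4 and 17.1, 17.2 and 14.0 at day 8. With EGCG it was 0.496, 0.543 and 0.435 at day 4 and 0.326, 0.342 and 0.319 at day 8. In WAT, then, Scd1 was the more abundant desaturase in every control library and Scd2 in every EGCG library. In BAT the ratio was 4.84, 5.04 and 5.02 in controls and 2.81, 2.58 and 2.35 with EGCG at day 4, and 16.4, 16.9 and 15.9 against 1.79, 1.78 and 1.60 at day 8. Scd1 remained the more abundant in all BAT libraries. Scd1 made up 71.2% ± 0.159 of the summed FPKM of the 10 genes in control BAT at day 8 and 16.8% ± 0.655 in EGCG-treated WAT at day 8, where Scd2 made up 50.4% ± 0.298.

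The ratio of Acaca to Acacb moved the other way. It was 15.6, 15.8 and 15.5 in control WAT at day 4 and 5.20, 7.43 and 6.72 at day 8, and in control BAT 18.5, 15.98 and 18.8 at day 4 and 2.33, 2.54 and 2.84 at day 8. With EGCG it was 23.2, 32.3 and 28.9 in WAT and 23.3, 21.6 and 22.5 in BAT at day 4, and 25.3, 24.7 and 22.2 in WAT and 18.03, 19.9 and 20.3 in BAT at day 8. The mitochondrial carboxylase thus took its largest share in control BAT at day 8, and every EGCG library at day 8 was above every control library of the same day. Acaca was above Acacb in all 24 libraries.

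**Figure D4:**
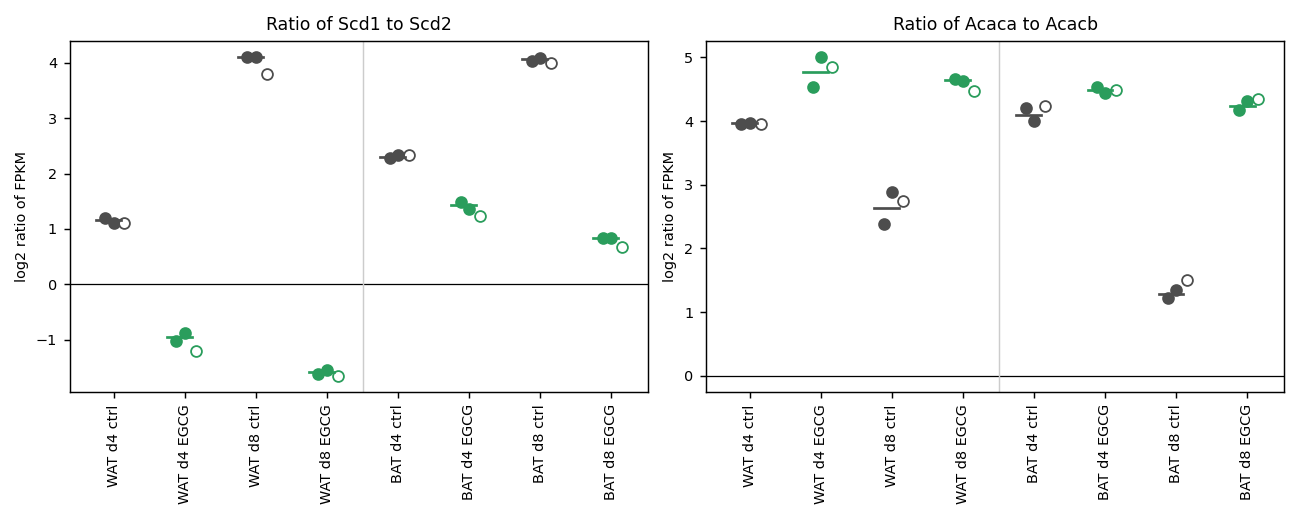
Log2 ratio of FPKM within each library for Scd1 to Scd2 (left) and Acaca to Acacb (right), by group, with controls in grey and EGCG in green. Filled points are replicates 1 and 2 with a bar at their mean, and open points are replicate 3. Ratios of Scd1 to Scd2 lie below 0 in the WAT EGCG groups and above 0 in all others, and the ratio of Acaca to Acacb is lowest in control BAT at day 8.

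The WAT day 8 controls differed among themselves for part of the set. Replicate 2 was at least 1.5 times replicate 1 for 6 genes, Thrsp (2.41 times), Acly (2.12), Elovl6 (1.88), Fasn (1.88), Mlxipl (1.79) and Acaca (1.56), where 4.73% of 13933 genes above the filter in those libraries reached that ratio. Replicate 3 lay between them for each of these 6. Scd1 (1.04), Scd2 (1.03), Acacb (1.09) and Me1 (1.14) differed little. In each of the other 7 groups no member reached a ratio of 1.5. Outside the set, the insulin-responsive glucose transporter Slc2a4 was 1.47 times and the carboxylase partner Mid1ip1 1.48 times as high in replicate 2, whereas Srebf1 was 1.17 and Insig1 0.73 times. The summed mature adipocyte markers were 5130.2 FPKM in replicate 1 and 6020.3 FPKM in replicate 2. Their part in the gap was not tested. The EGCG comparison of WAT at day 8 called all 10 genes without either replicate.

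**Figure D5:**
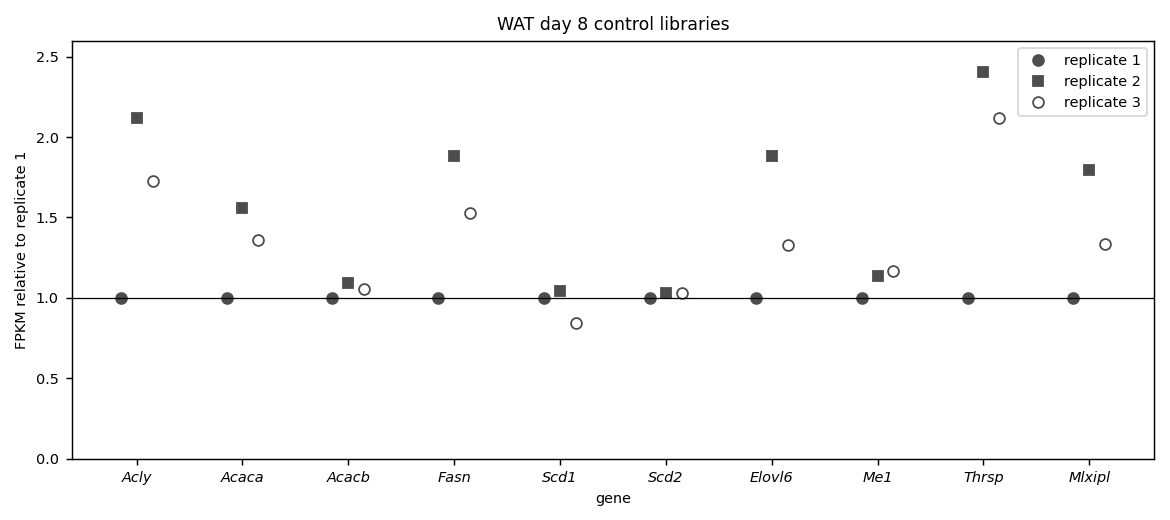
FPKM of each gene in the 3 control WAT libraries at day 8, relative to replicate 1 (linear axis from 0). Replicate 2 lies at 1.56 to 2.41 for Acly, Acaca, Fasn, Elovl6, Thrsp and Mlxipl and at 1.03 to 1.14 for Acacb, Scd1, Scd2 and Me1.

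Other genes of the pathway were followed by list. Of 12 genes that supply precursors and NADPH, 8 fell and 1 rose with EGCG in WAT at day 4, and 12 of 12 fell in WAT at day 8 and in BAT on both days, with medians of -0.59, -1.28, -0.94 and -1.94. Over all tested genes, 19.3%, 18.9%, 20.6% and 26.1% fell and 34.4%, 44.7%, 27.9% and 46.5% rose in WAT day 4, WAT day 8, BAT day 4 and BAT day 8. Slc2a4 (GLUT4), the insulin-responsive glucose transporter, fell most of the list in each, with log2 changes of -2.24 and -4.88 in WAT and -2.81 and -5.62 in BAT at day 4 and day 8. It was at 39.3, 57.7 and 49.6 FPKM in control WAT at day 8 and at 0.830, 0.497 and 0.219 FPKM with EGCG. Pcx, the mitochondrial pyruvate carboxylase that feeds citrate export, fell with log2 changes of -1.30, -4.21, -1.84 and -4.27 in WAT day 4, WAT day 8, BAT day 4 and BAT day 8. Pgd, of the pentose phosphate pathway, was the gene that rose in WAT at day 4, by 0.64, and G6pdx (-0.16), Slc25a1 (-0.0017) and Tkt (-0.0047) did not pass the test there. In controls 12 of the 12 rose between the days in WAT, beside 27.7% of tested genes, and 11 in BAT, beside 28.7%.

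The upstream regulators moved in both directions, and their median change was smaller than that of the members. Mlxipl is counted with the members and not in this list. Of 12, 3 fell and 5 rose with EGCG in WAT at day 4, 5 fell and 4 rose in WAT at day 8, 5 fell and 2 rose in BAT at day 4, and 5 fell and 4 rose in BAT at day 8, with medians between -0.087 and 0.074 whose sign in WAT depended on the scaling. The background was 19.3% lower and 34.4% higher in WAT at day 4 and 18.9% and 44.7% in WAT at day 8. In BAT the background was 20.6% and 27.9% at day 4 and 26.1% and 46.5% at day 8. The counts of this list at day 4 in WAT were near the share of all genes. In the other comparisons the 5 of 12 that fell were above that share. Srebf1, which encodes SREBP-1, was at 65.8, 61.4 and 75.5 FPKM in control WAT and 29.1, 27.5 and 31.7 FPKM with EGCG at day 4, and at 132, 136 and 142 FPKM in control BAT and 30.1, 30.4 and 32.2 FPKM with EGCG at day 8. It fell in all 4 comparisons, with log2 changes of -1.14 and -0.90 in WAT and -1.78 and -2.11 in BAT. Nr1h3 (LXR alpha, a sterol receptor that activates Srebf1) fell (log2 changes -0.94, -1.59, -1.497 and -2.28), as did Insig1 (which retains SREBP in the endoplasmic reticulum, -0.42, -0.78, -1.39 and -1.57), in the order WAT day 4, WAT day 8, BAT day 4, BAT day 8. Scap, the SREBP escort protein, rose in all 4, by 0.47, 0.76, 0.46 and 0.86. Mlx and Mlxip, the dimer partner and the paralog of Mlxipl, had changes between -0.65 and 0.10. The log2 change of Srebf1 mRNA between the days in control WAT was 0.024 and did not pass the test. The part of Srebf1 in the changes of the lipogenic genes was not tested.

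Of 9 genes that act on the carboxylases, 3, 3, 4 and 5 fell and 2, 3, 1 and 2 rose with EGCG in the same order. Mid1ip1, which promotes the polymerisation of the carboxylases, had log2 changes of -0.85, -0.52, -0.56 and -1.06, and Mlycd, which degrades malonyl-CoA, of -0.34, -0.75, -0.51 and -1.26. Of 13 other elongation and desaturation genes tested (Elovl7 and Scd4 were below the filter), 6, 7, 8 and 10 fell and 1, 1, 2 and 3 rose. Elovl3, an elongase of brown fat, had log2 changes of -2.11, -1.45, -3.16 and -1.41, and Scd3, a further desaturase, of -0.40, -1.07, -0.84 and -2.71. Of 6 genes of mitochondrial fatty acid synthesis, a separate route, 3, 5, 6 and 6 fell and none rose, with medians of -0.19, -0.34, -0.41 and -1.02, smaller than those of the cytosolic set on the same scale. These counts stand beside the 19.3%, 18.9%, 20.6% and 26.1% of all tested genes that fell and the 34.4%, 44.7%, 27.9% and 46.5% that rose, and several of those for the carboxylase list are near these shares. All of these lists were picked with earlier results known, and their counts are descriptions.

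Markers of other cells, given mostly as sums, moved with EGCG beside the set. All 10 mature adipocyte markers fell in each of the 4 comparisons, with median log2 changes of -2.81, -5.54, -2.20 and -4.82 in WAT day 4, WAT day 8, BAT day 4 and BAT day 8. Their sum was 408 to 446 FPKM in EGCG-treated WAT at day 4 and 152 to 166 FPKM at day 8, and in BAT 1250.4 to 1273 and 331 to 334 FPKM. The summed macrophage markers were 67.1 to 72.0 FPKM in controls and 179 to 183 FPKM with EGCG in WAT at day 4 and 154 to 163 against 343 to 383 FPKM in BAT at day 4, and were lower with EGCG at day 8 (97.8 to 110.1 against 55.3 to 58.6 FPKM in WAT and 103 to 106 against 57.6 to 58.4 FPKM in BAT). Ptprc, the defining leukocyte gene, stayed under 1 FPKM in all 16 libraries. The 5 endothelial markers summed to 13.9 to 15.2 FPKM in controls and 33.6 to 34.8 FPKM with EGCG in WAT at day 4, 20.2 to 21.6 against 28.6 to 28.9 FPKM in WAT at day 8, 11.0 to 13.2 against 35.1 to 37.9 FPKM in BAT at day 4 and 16.01 to 16.4 against 33.0 to 34.0 FPKM in BAT at day 8. The 6 progenitor markers summed to 414 to 447 against 625 to 636 FPKM, 1356 to 1446 against 964 to 978 FPKM, 449 to 535 against 635 to 681 FPKM and 613 to 617 against 621 to 626 FPKM in the same order. Epithelial keratin and adhesion genes, which could mark mammary epithelium in inguinal fat, summed to 33.5 to 41.3 FPKM in control and 48.8 to 99.5 FPKM in EGCG-treated WAT at day 4 and to 17.9 to 21.4 against 19.8 to 33.4 FPKM at day 8, and to at most 0.153 FPKM in every BAT library. The 4 muscle genes summed to 33.6 to 34.2 against 57.7 to 58.0 FPKM in WAT at day 4, to 21.3 to 23.4 against 23.4 to 28.1 FPKM in WAT at day 8, to 8.41 to 14.98 against 12.9 to 14.6 FPKM in BAT at day 4 and to 29.5 to 32.3 against 21.9 to 22.8 FPKM in BAT at day 8, with Myod1 under 1 FPKM throughout. The 5 brown fat markers summed to 25.6 to 27.8 FPKM in control and 10.2 FPKM in EGCG-treated BAT at day 8. They did not move together there. Cidea (log2 change -3.52), Ucp1 (-2.92), Ppara and Prdm16 (-0.21) fell with EGCG, whereas Zic1 rose (0.89). In BAT at day 4 Ppara (-1.11) and Ucp1 (-0.38) fell, and Zic1, Cidea and Prdm16 did not pass the test. Single markers did not all move with the sum of their list. In WAT at day 8 the endothelial genes Cdh5, Kdr, Tek and Emcn rose, and Pecam1 (-0.16) did not pass the test. Of the muscle genes in BAT at day 8, Des fell (-0.86), and Myog (-0.38) and Acta1 (-0.28) did not pass. The part of these shifts in cell makeup in the changes of the lipogenic genes was not tested.

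Genes outside the set with the most similar pattern were ranked by the Pearson correlation of their log2 level with the mean of the members over the 16 libraries, among 10201 genes. The 5 highest were Tmem179 (0.991), Acss2 (0.989), Slc2a4 (0.987), Serpina3c (0.986) and Chpt1 (0.984). Acss2, which makes acetyl-CoA from acetate, went from 14.4 ± 1.25 to 56.0 ± 4.43 FPKM between the days in control WAT and from 9.10 ± 0.223 to 5.61 ± 0.161 FPKM with EGCG. Of all genes compared, 64 outside the set had a correlation of at least 0.95. The points share depots, days and treatments, and the correlations are descriptions with no test.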

How the data were processed

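RNA was sequenced from 24 libraries, 3 for each of 8 groups taken from the sample labels. The authors deposited FPKM values in 2 tables scaled separately, 16 libraries of replicates 1 and 2 and 8 of replicate 3. The submitters' processing notes name FastQC 0.11.9, HISAT2 2.2.0, HTSeq 0.11 and the build mm9, and the strand setting is not given in the sources used here. All 37310 gene lengths were those of the longest transcript in GENCODE vM1. FPKM times length gave whole reads at a tolerance of 0.01 in 100.0% of values, from which reads and depth were recovered. The number of libraries and the spread between them, more than counting error, limit the precision.

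Genes with an FPKM of at least 1 in at least 2 of the 16 libraries of replicates 1 and 2 were tested (14095, with all 10 members). After a pseudocount of 1, log2 values of the deposited FPKM entered a limma 3.58.1 model (R 4.3.3) with a separate level for each of the 8 groups, moderated by eBayes with a trend on 8 residual degrees of freedom. Tests of 16 contrasts were two-sided with Benjamini-Hochberg adjustment within each. The procedure was tested on simulated data. Replicates 1 and 2 of each group differed by more than sampling noise (median squared difference 1.62 to 3.90 times the counting variance, where sampling alone gives 0.455) and were kept as 2 samples. Alternatives were a pseudocount of 0.1, no filter, median-ratio scaling, quantile normalization, the replicate block, each contrast's own groups alone and the omission of each library.

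The 10 members and the gene lists were chosen with earlier results of these data known. The genes named are all members, the called genes with the highest and lowest change or a role explained in each list, and the 5 non-members most like the set among genes with a mean FPKM of at least 5 in their highest group. Promoters were read from RefSeq windows of 300 bases.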

Additional observations from a re-analysis of the deposited data

Results flagged for a closer look

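The effect of EGCG differed between depots or days, by the interaction test of limma (adjusted p under 0.05), in 27 of the comparisons of single genes. These were 2 of 10 genes between depots at day 4 and 5 of 10 at day 8, near the 28.1% and 39.2% of all tested genes, and 10 of 10 between days in each depot, where 19.7% of tested genes in WAT and 20.6% in BAT had a lower effect at day 8. As the effect in BAT minus that in WAT on the log2 scale, the difference at day 4 was -0.95 for Scd2 and 1.16 for Mlxipl. At day 8 it was -1.64 for Acacb, 0.88 for Scd1, -1.56 for Scd2, 0.72 for Me1 and 1.64 for Thrsp. As the effect at day 8 minus that at day 4, the difference in WAT was -2.60 for Acly, -1.75 for Acaca, -2.23 for Acacb, -2.77 for Fasn, -4.14 for Scd1, -0.57 for Scd2, -1.63 for Elovl6, -2.68 for Me1, -3.78 for Thrsp and -1.44 for Mlxipl. In BAT it was -2.46 for Acly, -1.82 for Acaca, -3.70 for Acacb, -2.79 for Fasn, -3.53 for Scd1, -1.18 for Scd2, -0.89 for Elovl6, -1.70 for Me1, -3.19 for Thrsp and -2.47 for Mlxipl.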

How the results depend on the processing

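Of 1760 values of single genes under an alternative, 1674 kept their direction and their side of the threshold, 33 newly passed the test, 42 lost it and 11 changed sign. The counts of members called with EGCG were 7, 10, 8 and 10 in WAT day 4, WAT day 8, BAT day 4 and BAT day 8 whichever library was left out. Median-ratio scaling moved the median of all genes with EGCG from 0.17 to 0.0028 in WAT day 8 and from 0.17 to 0.015 in BAT day 8. It gave Acly -0.10 and Scd2 -0.077 with EGCG in WAT day 4, where neither had passed the test. Elovl6 in control BAT against WAT at day 8 shifted to -0.028 with median-ratio scaling and to -0.053 with quantile normalization, and Acaca in BAT against WAT at day 8 with EGCG was -0.019 under quantile normalization. With each contrast's own groups alone, 3 members in place of 7 were called in BAT against WAT controls at day 8, 8 in place of 5 with EGCG at day 8, and 7 in place of 2 for the depot difference at day 4. A pseudocount of 0.1 newly called 5 results, Acacb (-0.41) and Mlxipl (-0.96) between the days in WAT with EGCG, Acaca in BAT against WAT at day 4 with EGCG (0.39), and the depot difference of Thrsp at day 4 (1.82) and Mlxipl at day 8 (1.43), and it lost none. The causes of these shifts were not tested.

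With single libraries left out, the calls in the depot difference at day 8 numbered 5 to 8, in BAT with EGCG between the days 5 to 7 and in BAT against WAT controls at day 8 5 to 9. Without WAT day 8 control replicate 1 or 2, BAT against WAT controls at day 8 ran from -0.067 to 1.01 for Acly and -0.40 to 0.44 for Elovl6. The depot difference at day 8 ran from -0.89 to 0.20 for Acly, -0.17 to 0.66 for Elovl6 and -0.28 to 0.53 for Mlxipl. Thrsp between the days in BAT with EGCG ran from -0.013 to 0.39. The replicate numbers were not shown to pair the samples, since none of 28 correlations between same-numbered deviations exceeded 0.1 (-0.079 to 0.081). With the replicate block, Acaca in BAT against WAT at day 4 with EGCG passed the test (0.37, adjusted p = 0.0485, limma), and the other 159 calls stood as they were. Genes near 1 FPKM or below (Thrsp, Mlxipl and Acacb with EGCG) are limited by their reads, down to 13 in the shallowest case.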
